A study of Drosophila melanogaster and Drosophila yakuba and Drosophila virilis with 6 samples.

Results

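Wing and eye-antennal discs, larval precursors of adult body parts, were compared between D. melanogaster and D. yakuba, a close relative in the same species group, to find genes whose tag level differed between the species in both discs. The comparison used 4 of the 6 libraries of the series, which also holds the same discs of D. virilis. The D. melanogaster libraries came from the CantonS strain, with 1 eye-antennal and 1 wing library. For D. yakuba there was likewise 1 library of each disc, and the labels name no strain. All larvae were wandering animals of the third instar, the last larval stage, and total RNA was used. A total of 8876 genes had tags in both species, and 6640 of them passed the filter on low counts and were tested.

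Imaginal discs are sacs of epithelium inside the larva that become adult parts at metamorphosis. The eye-antennal disc gives the eye, the antenna and the head capsule, and the wing disc gives the wing and the notum. Each disc is patterned by selector transcription factors and by secreted signals, and its cells proliferate through larval life. In tag profiling, cDNA bound by its poly(A) end is cut with NlaIII, which reads CATG, and a short tag beside the site nearest the end is counted. A transcript therefore gives its count at 1 or a few sites, and a gene without a usable site gives none. Where a species has gained or lost a site, where a transcript ends elsewhere, or where a gene model stops short of the tag, the count of a gene moves although its transcript need not. These cannot be told apart from a change of level in the gene totals alone, so each difference was read in 3 counts of the same libraries.

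The first count, called the gene mapping here, sums all tags that the authors placed on a gene of each species. The second replaces the D. yakuba values with the authors' other mapping of the same tags, through the droYak2 genome to D. melanogaster genes, called the genome mapping. The third keeps only tag positions at which tags of both species fell on the same D. melanogaster base and gene, called shared sites. A single tag of a species was enough for this, so a gene tagged mostly at different sites in the species can have a large fold there. A gene was called where edgeR's quasi-likelihood test, with the disc as a block, gave a Benjamini-Hochberg adjusted p under 0.05. Folds are log2 of D. melanogaster over D. yakuba, with the standard error (SE) where given, so that positive values are higher in D. melanogaster. Levels are CPM, the tag count per 1000000 tags of scaled library size, and each pair of values gives the eye-antennal disc first and the wing disc second. The 2 discs were the only replicates of a species, nothing in the labels says how many animals were pooled, and the p-values measure only the spread between these libraries. Species, strain and library preparation cannot be told apart in this design.

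The D. melanogaster libraries held 2207612 and 1860370 tags and the D. yakuba libraries 5673047 and 2200615 tags. A count of 3 tags, the most that a count of 0 allows, was 1.47 and 1.75 CPM in D. melanogaster and 0.636 and 1.72 in D. yakuba. The libraries carried their labelled tissue. The summed level of 6 markers of the eye-antennal disc was 2540 and 89.7 CPM in D. melanogaster and 2810 and 222 in D. yakuba. The summed level of 6 wing disc markers was 34.3 and 392 CPM in D. melanogaster and 11.9 and 383 in D. yakuba. Across the 6640 genes, log levels of the 2 discs of a species had Pearson correlations of 0.845 in D. melanogaster and 0.924 in D. yakuba, while the same disc of both species gave 0.482 for the eye-antennal and 0.540 for the wing disc. At shared sites the last 2 values were 0.519 and 0.565, over 5182 genes. These correlations are across genes, which are not independent replicates, and the libraries of a species share its sites and gene models.

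In the gene mapping 2451 of the 6640 genes were called, which is 36.9% of those tested. Of these, 1248 (18.8%) were higher in D. melanogaster and 1203 (18.1%) higher in D. yakuba. Every called gene had the same sign in both discs, as had 2808 of the 4189 genes not called. The test hardly calls a gene whose discs have opposite signs, so this is not separate support for the calls. Most of these calls were not repeated in both other counts, in part because a count gave no test for the gene. In the genome mapping 28.6% of 7047 genes were called, 15.8% higher and 12.8% lower in D. melanogaster, and at shared sites 34.4% of 5182. Called the same way in all 3 counts, which is what "held" means below, were 294 genes higher in D. melanogaster (4.43% of the genes tested) and 300 higher in D. yakuba (4.52%). Together they make 8.95% of the 6640 genes and 12.6% of the 4702 genes that could be tested in all 3 counts, 6.25% higher and 6.38% lower in D. melanogaster. All 594 differed at least 2-fold in each count, and 67 of those higher in D. melanogaster and 57 of those higher in D. yakuba differed at least 8-fold in each. Without the D. yakuba eye-antennal library the calls fell to 484 higher in D. melanogaster and 442 higher in D. yakuba, of which 28 and 38 held in all 3 counts. Without the D. yakuba wing library they were 504 and 482, of which 33 and 40 held. The fits of 3 libraries have no disc term, so each sets both discs of one species against 1 disc of the other, and for a gene that differs between the discs its fold moves with the disc. The values and calls given below for single genes with a library left out are those of the gene mapping alone and are to be read with that limit.

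**Figure D1:**
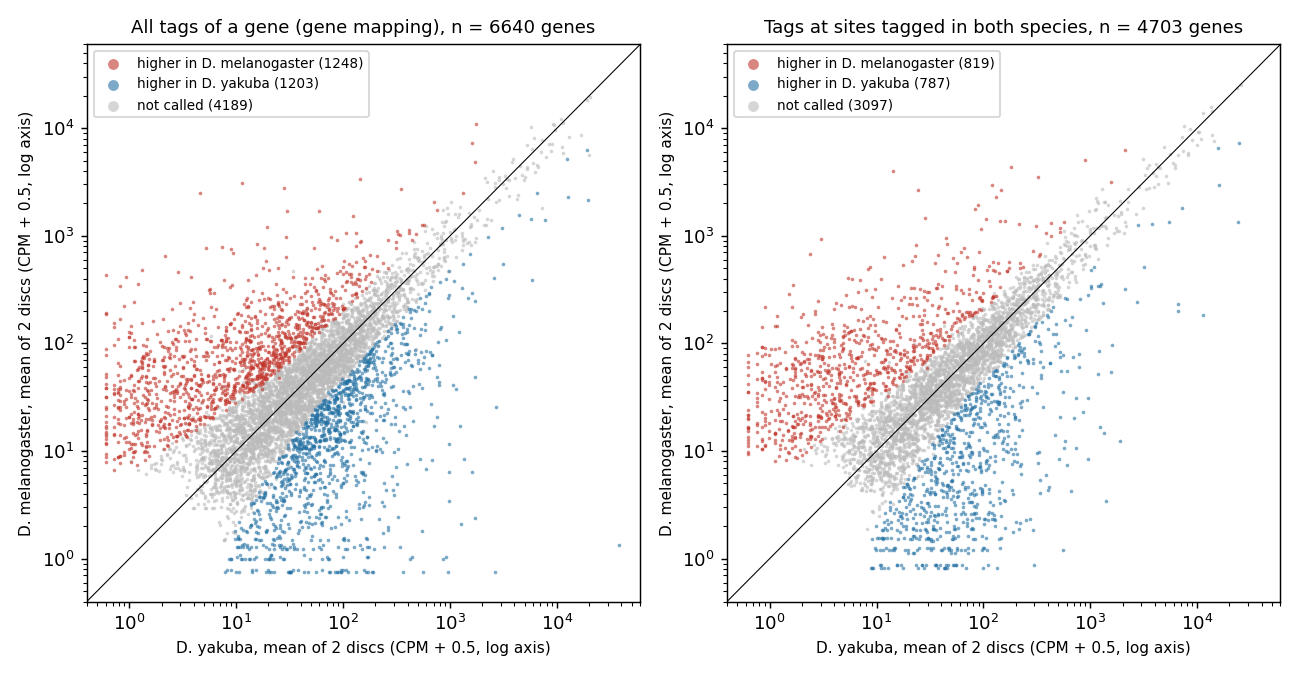
Mean level of each gene over both discs in D. melanogaster (vertical axis) against D. yakuba (horizontal axis), in CPM plus 0.5 on log axes. The left panel shows all tags of a gene for the 6640 genes tested, and the right panel tags at shared sites for the 4703 of them with enough tags there. Red points were called higher in D. melanogaster, blue points higher in D. yakuba and grey points were not called. Both panels show called genes spread over several powers of 10 on each side of the line of equal levels.

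Of the 1248 genes called higher in D. melanogaster, 514 (41.2%) were not called the same way in the genome mapping, as were 485 (40.3%) of the 1203 genes called higher in D. yakuba. These include genes without a test there, since the genome mapping tested 1223 and 994 of the called genes. All 3 counts tested 862 and 625 of them, of which 294 and 300 held. A further 294 and 272 were called in the genome mapping but had too few tags at shared sites for a value. Another 146 in each direction had a value at shared sites and were not called the same way. The held genes split by whether the most tagged site of the gene was the same in both species, which it was for 170 of those higher in D. melanogaster and for 178 of those higher in D. yakuba. Over all called genes with known sites, the most tagged site was shared by 36.7% of genes higher in D. melanogaster and 30.5% of genes higher in D. yakuba, against 55.8% of genes not called. At shared sites 101 genes called higher in D. melanogaster in the gene mapping were called higher in D. yakuba, and 107 genes went the other way. Of 3216 genes not called in the gene mapping and tested at shared sites, 385 were called there with the same sign and 281 with the opposite sign. For the held genes whose most tagged sites differ, a change of site and a change of level cannot be told apart.

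**Figure D2:**
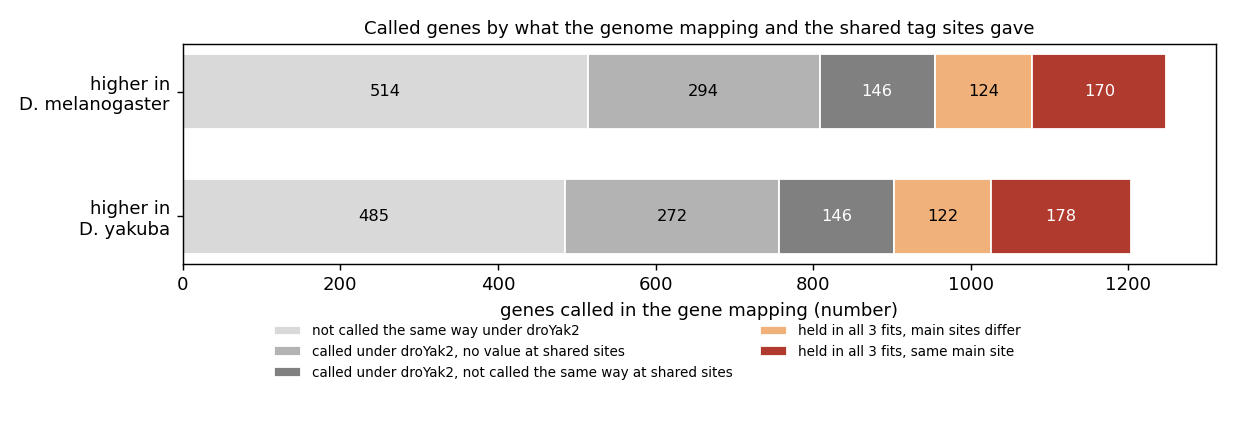
Number of genes called in the gene mapping (horizontal axis), by direction, split by what the genome mapping and the shared sites gave. The 2 right-hand segments of each bar are the genes that held in all 3 counts, 124 and 170 of those higher in D. melanogaster and 122 and 178 of those higher in D. yakuba.

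Several large differences of the gene mapping went with the placing of D. yakuba tags. The Wnt receptor gene fz2 had 262 and 456 CPM in D. melanogaster and 0.848 and 0.573 in D. yakuba, a log2 fold of 8.63 ± 0.57 (SE). The genome mapping placed 1404 and 851 D. yakuba tags on fz2, where the gene mapping placed 4 and 1, and the log2 fold became -0.21, and -0.18 at shared sites. The same site carried most fz2 tags in both species, with 1151 tags in D. melanogaster and 2141 in D. yakuba. CBP, which had 273 and 209 CPM in D. melanogaster and 0.636 and 0.573 in D. yakuba, likewise had log2 folds of -0.33 in the genome mapping and -0.22 at shared sites. The gene for the translational repressor cup had 351 and 346 tags in D. melanogaster, and 1 and 0 tags in D. yakuba by the gene mapping but 402 and 181 by the genome mapping, whose main position the gene mapping lists under CG34310. In the genome mapping eEF1alpha2, a translation elongation factor gene, was higher in D. yakuba, with 2278 and 496 tags there and a log2 fold of -1.50. For 37.8% of the genes called higher in D. melanogaster, the main D. yakuba position of the genome mapping was not given to the gene by the gene mapping, against 3.11% of the genes not called.

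The reverse was seen for genes called higher in D. yakuba. For 24.2% of them the genome mapping placed the main position of the gene mapping on another D. melanogaster gene, against 2.53% of the genes not called. CG9849 had 24.5 and 26.2 CPM in D. melanogaster and 2420 and 2974 in D. yakuba by the gene mapping, a log2 fold of -6.72 ± 0.46. Its main D. yakuba position was placed on CNBP by the genome mapping, and the log2 fold was -0.88 there. Tags listed under Tcs4 went to Cdc42, the small GTPase gene, and the log2 fold of Tcs4 was -6.53 in the gene mapping and 0.99 in the genome mapping. Likewise, tags listed under Ccp84Ab, which had 4868 and 398 CPM in D. yakuba, went to lncRNA:CR33938, and those under CG34454 went to lncRNA:CR42862.

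Genes with the same sign in both discs in both mappings were ranked by the smaller fold of the 2 discs over all tags. Of the first 12 in each direction, 5 higher in D. melanogaster and 1 higher in D. yakuba held. The sign filter had taken out genes such as fz2, so these are not the shares among all large folds. Pdf, for a neuropeptide of clock neurons, had 5396 and 3960 tags in D. melanogaster and 1 and 14 in D. yakuba. Its main D. melanogaster site, with 9342 tags, had none from D. yakuba. Idgf4, an imaginal disc growth factor gene, had 555 and 1739 tags in D. melanogaster and 5 and 4 in D. yakuba, and Nasp, for a histone chaperone, 944 and 624 in D. melanogaster and 4 and 0 in D. yakuba. These 2 and CG10841 gave no test in the genome mapping, and CG14866 had no value at shared sites. Alh, a chromatin gene, held with log2 folds of 3.91 in the genome mapping and 2.71 at shared sites. CG17734 and CG31142 also held, with 1.64 and 1.10 in the genome mapping.

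Among the 12 higher in D. yakuba, 6 gave no test in the genome mapping, namely CG34454, Ccp84Ab, CG17919, CG12194, CG17572 and Ufsp1. CG17202 held, with 18 and 12 tags in D. melanogaster and 6731 and 2200 in D. yakuba. The genome mapping placed its main D. yakuba position, with 5818 tags, on Pp1-87B. With the 2326 and 732 tags left on CG17202 the log2 fold was -5.91. Its most tagged sites in the 2 species differed and lay 18 bases apart. Set, for a histone-binding protein, had 3 and 3 tags in D. melanogaster and 5690 and 2334 in D. yakuba, a log2 fold of -5.34 in the genome mapping and no value at shared sites. CG32944, CG32055 and Sirup had -4.34, -8.69 and -1.81 in the genome mapping in that order. CG10307 and Mtr4, with -5.72 and -5.70 in the gene mapping, were nearer 0 there (-0.67 and -0.15). So was CG13813 (0.09), which the gene mapping gave as higher in D. melanogaster (8.95).

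Some genes had tags in only one species. A total of 3805 genes had D. melanogaster tags and none in D. yakuba by the gene mapping, and 633 of them had at least 50 D. melanogaster tags. The genome mapping gave D. yakuba tags to 511 of these 633 genes. RpL41, a ribosomal protein gene of the large subunit, had 67737 and 24379 tags in D. melanogaster and none in D. yakuba by the gene mapping, which lists the corresponding tags under Tpc2, but 169088 and 69704 by the genome mapping. RpS27A, RpL8 and RpS6 were the next most tagged such genes, and all 3 had D. yakuba tags in the genome mapping. The other 122 genes were at 0 in D. yakuba in both mappings. Among them were RpL26, with 5302 and 5666 D. melanogaster tags, and CG11300, with 2406 and 6766. In the other direction 582 genes had D. yakuba tags and none in D. melanogaster, and 206 of these had at least 50 D. yakuba tags. Several of the most tagged are older gene identifiers. The tags under FBgn0024939, 29461 and 11509 in D. yakuba, were placed on RpL8 by the genome mapping, and those under FBgn0004413, 9783 and 4834, on RpS26. A 0 was not read as an absent transcript.

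Among the held genes whose most tagged site was the same in both species, the 12 higher in D. melanogaster and 11 of the 12 higher in D. yakuba whose smallest fold over the 3 counts was largest are described here, a choice made after their values were seen, so their folds are a description. CG12310, a gene of unknown role at 3L:15050263-15050806 in BDGP6.54, had 3378 and 2845 CPM in D. melanogaster and 12.1 and 9.75 in D. yakuba. Its log2 fold was 8.15 ± 0.49 in the gene mapping (adjusted p = 1.03e-05), 8.08 in the genome mapping and 8.20 at shared sites, and both D. melanogaster libraries lay far above both D. yakuba libraries. Pig1, a gene at X:3248600-3249289, had 658 and 507 CPM in D. melanogaster and 21.2 and 16.1 in D. yakuba, and log2 folds of 4.97, 8.42 and 8.40 in the 3 counts. Lsp1alpha, at X:12490291-12492982, encodes a storage protein that the fat body secretes into the larval blood. It had 1956 and 4812 CPM in D. melanogaster and 43.9 and 245 in D. yakuba, a log2 fold of 4.88 ± 0.48 (adjusted p = 5.55e-05), and was no longer called without the D. melanogaster wing library (log2 fold 3.72, adjusted p = 0.072).

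Others of the 12 genes higher in D. melanogaster had few D. yakuba tags. lcs had 579 and 95 tags in D. melanogaster, against 3 and 0 in D. yakuba. CHKov1, a choline kinase-like gene, had 153 and 181 tags in D. melanogaster and 4 and 5 in D. yakuba. ND-19, for a subunit of respiratory complex I, had 114 and 72 tags in D. melanogaster and 5 and 0 in D. yakuba. Sgs5bis, named for the salivary glue proteins, had 82 and 166 tags in D. melanogaster and 6 and 2 in D. yakuba, and Trm1, a tRNA methyltransferase gene, had 78 and 127 in D. melanogaster and 7 and 4 in D. yakuba. Both D. melanogaster counts lay above both D. yakuba counts for each of these 5 genes, which largely follows from their choice by large folds. The others of the 12 were St2, CG17477, CG7985 and CG10165. Where a gene had so few D. yakuba tags, the match of its most tagged site rests on them, with 3 tags for lcs and CG17477 and 1 for St2.

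The 11 genes higher in D. yakuba include veli, at 3R:25064418-25065591, which encodes a small scaffold protein of cell junctions and synapses. It had 4.90 and 4.08 CPM in D. melanogaster and 356 and 287 in D. yakuba. Its log2 fold was -6.15 ± 0.47 (adjusted p = 2.2e-05), and between -6.34 and -5.96 when each library was left out. CG4594 had 1 and 0 tags in D. melanogaster, against 516 and 196 in D. yakuba. Upf3, a gene of nonsense-mediated mRNA decay, had 0.981 and 2.91 CPM in D. melanogaster and 67.6 and 69.9 in D. yakuba. Sesn, for the stress protein sestrin, had 4.90 and 0 CPM in D. melanogaster and 80.7 and 63.1 in D. yakuba. Nelf-E, for a subunit of the factor that pauses RNA polymerase II, had 1.47 and 43.1 CPM in D. melanogaster and 202 and 150 in D. yakuba, so that the D. melanogaster discs differed from each other far more than the D. yakuba discs did. It was not called without either D. yakuba library (log2 fold -2.71 without the eye-antennal, -3.20 without the wing library). The others of the 11 were RpL29, CG16800, SPH93, CG6066, CG8586 and ATPsynGL. For CG4594, CG16800 and CG6066 the match of the most tagged site rests on 1 D. melanogaster tag each. Of the 23 genes, 16 stayed called in each of the 4 fits that left out a library.

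**Figure D3:**
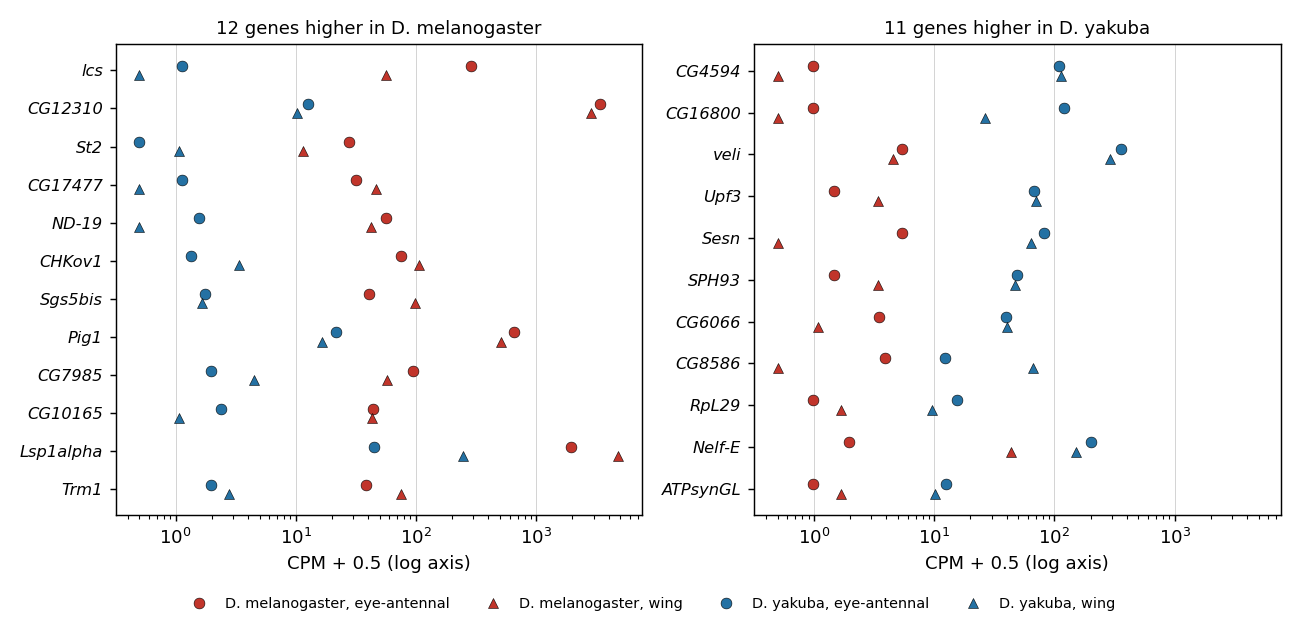
Levels in each of the 4 libraries (CPM plus 0.5, log axis) of 12 genes that held in all 3 counts and were higher in D. melanogaster (left) and 11 that were higher in D. yakuba (right). Circles are eye-antennal and triangles wing discs, red for D. melanogaster and blue for D. yakuba. The species do not overlap for any of the 23 genes, which largely follows from their choice by large folds. Nelf-E shows the widest gap between the D. melanogaster discs on the right.

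Most larval muscle genes and several cytoskeleton genes were higher in D. melanogaster. Of 5 larval muscle markers tested, 4 were higher in D. melanogaster and all 4 held in all 3 counts, beside 4.43% of all genes that held in that direction. Mlc2, a myosin light chain gene, had 1197 and 352 CPM in D. melanogaster and 77.6 and 29.2 in D. yakuba, a log2 fold of 3.78 ± 0.39 (adjusted p = 6.97e-05). Mlc1, the other light chain gene, had 311 and 102 CPM in D. melanogaster and 31.4 and 13.2 in D. yakuba. The tropomyosin gene Tm2 and the muscle actin gene Act57B had log2 folds of 3.49 and 2.80. The troponin gene up was not called (log2 fold -0.28 ± 0.47), with 57.4 and 24.5 CPM in D. melanogaster and 43.2 and 49.9 in D. yakuba. Larval muscle is a tissue outside the disc epithelium, and in bulk discs fewer cells of a type and less RNA per cell cannot be told apart. The summed level of the muscle list was 1790 and 585 CPM in D. melanogaster and 184 and 102 in D. yakuba. Without the D. yakuba wing library none of the 4 genes passed the test, with log2 folds between 2.06 for Act57B and 3.25 for Mlc2. Without the D. melanogaster eye-antennal library Mlc1 (2.16), Tm2 (2.14) and Act57B (2.38) did not.

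Of 15 cytoskeleton genes 6 were called higher and 1 lower in D. melanogaster, beside 18.8% higher and 18.1% lower over all genes, and 5 held, all higher, beside 4.43%. alphaTub84B, the main alpha-tubulin gene of most cells, had 1722 and 3692 CPM in D. melanogaster and 370 and 330 in D. yakuba. Its log2 fold of 2.85 ± 0.44 (adjusted p = 0.000705) lay between 2.25 and 3.40 when each library was left out. The second alpha-tubulin gene alphaTub84D, with a log2 fold of 1.53, and the beta-tubulin gene betaTub97EF, with 3.85, moved the same way. jar, for myosin VI, had a log2 fold of 1.48. The most tagged member, the cytoplasmic actin gene Act5C, had 10440 and 8618 CPM in D. melanogaster and 9217 and 9928 in D. yakuba, a log2 fold of -0.01 ± 0.39. Moe, for the membrane linker moesin, was called lower in D. melanogaster in the gene mapping (-4.01) and had 0.86 in the genome mapping. Act57B is on both lists, and the part of muscle tissue, whose summed markers are given above, in the tubulin values was not tested. Without either D. yakuba library alphaTub84D (1.42 and 1.62) and jar (1.17 and 1.93) were not called, nor was jar without the D. melanogaster wing library (0.91).

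alphaTub84B is also 1 of 7 tested genes that are often used as references, and the other 6 were not called in any of the 3 counts. RpL32, a ribosomal protein gene, had 4180 and 4537 CPM in D. melanogaster and 4718 and 5786 in D. yakuba, a log2 fold of -0.26 ± 0.38. Gapdh1 had -0.70 ± 0.38, Gapdh2 -0.55 ± 0.34, Tbp -0.58 ± 0.42 and Prx2 -0.11 ± 0.52. The median log2 fold over all 6640 genes was -0.08.

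Fat body genes were high and uneven between libraries. The 6 markers of this storage organ summed to 17800 and 31300 CPM in D. melanogaster and 2860 and 32000 in D. yakuba, so by the gene mapping the D. yakuba eye-antennal library was low and the wing library was not. By the genome mapping the D. yakuba sums were 1440 and 15900 CPM. The storage protein gene Lsp1gamma had a log2 fold of -1.31 in the gene mapping, not called, but 4.59 in the genome mapping and 4.95 at shared sites. Called higher in D. melanogaster were 4 of the 6, beside 18.8% of all genes, and only Lsp1alpha of the list held. Fbp2 had 2320 and 1818 CPM in D. melanogaster and 130 and 1289 in D. yakuba. Lsp2, another storage protein gene, had 10060 and 11820 CPM in D. melanogaster and 280 and 3210 in D. yakuba. Its log2 fold was 3.52 in the gene mapping and 7.78 in the genome mapping, but 0.38 at shared sites. Those sites held 43 and 216 of its 20528 and 20297 D. melanogaster tags. Its main site carried 40428 D. melanogaster tags and no D. yakuba tags. Fbp1, for the receptor that takes up storage protein, had a log2 fold of -0.44 in the gene mapping and 2.83 at shared sites. Its main D. yakuba site, with 21675 tags, had none in D. melanogaster, where the main site was 264 bases away. The part of adhering fat body in other differences was not tested.

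Of 58 cytosolic ribosomal protein genes tested 7 were called higher and 6 lower in D. melanogaster, beside 36.9% of all genes called in either direction. Held were RpL18, RpL39 and RpL34a, higher, and RpLP0, RpL7A, RpL4 and RpL29, lower. RpL18 had 5273 and 4476 CPM in D. melanogaster and 1744 and 1652 in D. yakuba, a log2 fold of 1.52 ± 0.38. RpLP0, for the stalk of the large subunit, had 898 and 1946 CPM in D. melanogaster and 4580 and 6824 in D. yakuba, a log2 fold of -2.08 ± 0.40. RpL7A and RpL4 had -1.67 and -1.49. The most tagged sites of RpL7A differed between the species, and its log2 fold at shared sites was -4.21. Its main D. yakuba site had 125508 tags and 105 in D. melanogaster. The main D. melanogaster site had 18292 tags and none in D. yakuba. The most tagged member, RpS23, had 20260 and 16280 CPM in D. melanogaster and 18510 and 19480 in D. yakuba, and was not called. RpS30 shows the placing of tags again, with a log2 fold of 6.52 in the gene mapping and -0.81 in the genome mapping. RpL14 had 10940 and 337 CPM in D. melanogaster and 18960 and 20420 in D. yakuba (adjusted p = 0.0501), so the low value was 1 library's. Without either D. yakuba library RpL18, RpLP0, RpL7A and RpL4 were no longer called, with log2 folds of 1.43 to 1.58, -2.23 to -1.72, -1.74 to -1.50 and -1.37 to -1.0 in that order. RpL4 was not called without the D. melanogaster eye-antennal library either (-0.55). RpL39 (3.24 and 3.45), RpL34a (2.67 and 3.35) and RpL29 (-3.36 and -4.18) were also not called without either D. yakuba library.

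Among translation and RNA-processing genes, 2 of 19 were called higher and 5 lower in D. melanogaster, near the 36.9% of all genes that were called. glo, for a heterogeneous nuclear RNA-binding protein, held with 193 and 348 CPM in D. melanogaster and 47.3 and 31.5 in D. yakuba. eIF4E1, for the protein that binds the mRNA cap, held with 109 and 19.8 CPM in D. melanogaster and 511 and 595 in D. yakuba, a log2 fold of -3.48 ± 0.62. Neither was called without the D. yakuba wing library (2.48 for glo and -3.05 for eIF4E1). The translocation factor gene eEF2 had 1897 and 2366 CPM in D. melanogaster and 18860 and 19870 in D. yakuba, a log2 fold of -3.19, but 4.19 at shared sites. Its main site in D. yakuba held 120351 tags, with 0 D. melanogaster tags there, and the main D. melanogaster site 267 bases away held 7521 tags, with 367 D. yakuba tags. eEF1beta (-1.37 in all tags and 4.64 at shared sites) and the ribosomal gene RpL30 (-3.94 and 2.09) had the same turn. For such genes the 2 counts give opposite directions, the species' tags lay mostly at different sites, and no direction is given for them here.

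In oxidative phosphorylation 6 of 53 genes were called higher and 10 lower in D. melanogaster, beside 18.8% higher and 18.1% lower over all genes, and 3 held in each direction. Higher in D. melanogaster were ND-19, described above, COX7C of complex IV, with 239 and 478 CPM in D. melanogaster and 37.3 and 50.5 in D. yakuba, and ND-ASHI of complex I, with 54.4 and 47.2 in D. melanogaster and 16.1 and 17.8 in D. yakuba. Lower were SdhB, for the iron-sulphur subunit of complex II, with 2.45 and 2.91 CPM in D. melanogaster and 145 and 165 in D. yakuba, COX7A of complex IV (-1.68) and RFeSP of complex III (-1.38). The most tagged sites of SdhB, COX7A and ND-ASHI differed between the species. For SdhB the main D. yakuba site had 895 tags and 3 in D. melanogaster. Its main D. melanogaster site had 4 tags and 46 in D. yakuba. SdhB and ND-19 kept their calls with each library left out, between -6.00 and -5.70 and between 5.42 and 9.49. The other 4 lost theirs without at least the D. yakuba eye-antennal library, with log2 folds of 2.86 for COX7C, 1.53 for ND-ASHI, -2.02 for COX7A and -1.27 for RFeSP. The most tagged member, ATPsynC, had 3651 and 3261 CPM in D. melanogaster and 2060 and 2196 in D. yakuba, and was not called (adjusted p = 0.172). UQCR-6.4, ND-B22, ox and ND-51, all called lower, had D. yakuba tags that the genome mapping placed on other genes, and gave no test there.

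In glycolysis 1 of 13 genes was called higher and 2 lower in D. melanogaster, beside 36.9% of all genes called in either direction. Eno, for enolase, at 2L:1724768-1729636, had 21.6 and 52.4 CPM in D. melanogaster and 1080 and 1170 in D. yakuba, a log2 fold of -5.05 ± 0.46 (adjusted p = 4.03e-05) that lay between -5.75 and -4.42 when each library was left out. Its sites differed: the main D. yakuba site had 7045 tags and 1 in D. melanogaster, and the main D. melanogaster site had 59 tags and none in D. yakuba. Pglym78, for phosphoglycerate mutase, was tagged mostly at the same site and had 99.0 and 118 CPM in D. melanogaster and 225 and 267 in D. yakuba (log2 fold -1.18 ± 0.35). Pglym78 was not called without either D. yakuba library (-1.28 and -1.10) or the D. melanogaster eye-antennal library (-1.06), nor when libraries were scaled by total tags.

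Of 29 proteasome genes 4 were called higher and 4 lower, beside 36.9% of all genes called in either direction. Prosbeta4, of the catalytic core, and Rpn3, of the lid, held higher in D. melanogaster, with log2 folds of 1.32 and 1.81. Rpt4, of the ATPase ring, and Rpn13, a ubiquitin receptor, held lower, with -1.60 and -2.99. Rpn13 had 155 and 657 CPM in D. melanogaster and 2777 and 2337 in D. yakuba. With each library left out, log2 folds ranged from 0.68 to 1.91 for Prosbeta4 and from 1.60 to 1.96 for Rpn3. For Rpt4 they ranged from -2.245 to -1.01 and for Rpn13 from -4.095 to -1.96. None of these 4 was called without either D. yakuba library, where Rpn13 had -2.48 and -2.79.

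In the gene mapping 6 of 12 heat-shock and chaperone genes were called lower in D. melanogaster, beside 18.1% of all genes, and none higher. Of these 6, 3 held, while Hsp27 and Hsp67Ba had the other sign at shared sites, and no direction is given for these 2. Hsp68, an inducible chaperone gene of the Hsp70 family, had 17.2 and 47.8 CPM in D. melanogaster and 83.9 and 279 in D. yakuba, a log2 fold of -2.42 ± 0.40 that held. Hsc70-3, for the chaperone of the endoplasmic reticulum, had 408 and 539 CPM in D. melanogaster and 905 and 1046 in D. yakuba (-1.05 ± 0.34). Hsp26, a small heat-shock gene, had 337 and 457 in D. melanogaster and 648 and 1165 in D. yakuba (-1.15 ± 0.35). Both also held, but none of the 3 kept its call without each library. Hsp68 lost it without the D. yakuba wing library (-1.40) or either D. melanogaster library (-1.91 without the eye-antennal, -3.44 without the wing), and Hsp26 lost it without any 1 of the 4 (-1.53 to -0.75). Hsc70-3 lost it without either D. yakuba library (-1.12 and -0.97) or the D. melanogaster eye-antennal library (-0.85). With libraries scaled by total tags, Hsc70-3 and Hsp26 were lower but not called. Hsp27, the most tagged member called, had 1275 and 1532 CPM in D. melanogaster and 7699 and 7673 in D. yakuba, with a log2 fold of -2.46 in all tags and 4.43 at shared sites. Hsp67Ba, another gene of the small heat-shock group, had -1.39 in the gene mapping and 3.61 at shared sites. The main D. yakuba site of Hsp27 held 47696 tags, with none from D. melanogaster. The most tagged uncalled member, Hsp83, had 2600 and 3392 CPM in D. melanogaster and 2910 and 3331 in D. yakuba.

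In detoxification and redox 3 of 19 genes were called higher and 7 lower, beside 18.8% higher and 18.1% lower over all genes. GstS1, a glutathione transferase gene abundant in flight muscle, held higher, with 442 and 447 CPM in D. melanogaster and 124 and 73.4 in D. yakuba (2.21 ± 0.38). Cat, for catalase, held lower, with 45.6 and 124 in D. melanogaster and 170 and 319 in D. yakuba (-1.63 ± 0.37). GstS1 was not called without the D. yakuba wing library (1.80) and Cat not without either D. yakuba library or the D. melanogaster eye-antennal library (-1.88 to -0.98). GstE12 had -2.84 in all tags and 7.49 at shared sites, and Cyp9b2, a cytochrome P450 gene, had -5.54 in the gene mapping and 0.22 in the genome mapping.

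Of 17 cuticle and apical matrix genes 1 was called higher and 6 lower, beside the same 18.8% and 18.1%. Held were serp, a chitin deacetylase gene, with 212 and 204.5 CPM in D. melanogaster and 709 and 374 in D. yakuba, and Cpr65Ec, a cuticle protein gene, with 5.88 and 37.9 in D. melanogaster and 146 and 100 in D. yakuba. serp was not called without any 1 of the 4 libraries (-1.81 to -0.83), nor Cpr65Ec without either D. yakuba library (-2.16 and -2.77). Of 10 antimicrobial and immune effector genes 2 were called in each direction, and of 10 genes for odorant-binding proteins and secreted carriers also 2 in each direction, and none of these held. Obp99b had 859 and 2510 CPM in D. melanogaster and 9.54 and 108 in D. yakuba (log2 fold 5.47), and -0.47 at shared sites. Its main D. melanogaster site held 5793 tags and none of D. yakuba. DptA, for an antibacterial peptide, had 33.3 and 34.4 CPM in D. melanogaster and 0 and 0.573 in D. yakuba, with no value at shared sites.

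Of 25 genes of retinal determination and photoreceptors 1 was called higher and 4 lower in D. melanogaster, beside 18.8% higher and 18.1% lower over all genes. The retinal selector gene eya had 1754 and 75.7 CPM in D. melanogaster and 2074 and 169 in D. yakuba, and was not called (-0.69 ± 0.38). ato, at 3R:8278052-8279274, the proneural gene that founds each ommatidium, had 41.7 and 0.583 CPM in D. melanogaster and 462 and 18.9 in D. yakuba. Its log2 fold of -3.73 ± 0.49 held, and was -3.46 within eye-antennal and -4.46 within wing discs. Its main D. yakuba site had 2190 tags and 1 from D. melanogaster, whose main site, 228 bases away, had 79 tags and none from D. yakuba. dac, for a retinal nuclear factor, held with 32.9 and 4.08 CPM in D. melanogaster and 80.5 and 33.3 in D. yakuba, and toe, a Pax-family gene, held higher, with 74.5 and 75.7 in D. melanogaster and 31.6 and 19.5 in D. yakuba. toe was not called without any 1 of the 4 libraries (1.20 to 1.96), nor dac without either D. yakuba library (-0.84 and -2.19) or the D. melanogaster wing library (-0.86). The most tagged sites of ato, dac and toe all differed between the species.

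Of 23 wing and notum patterning genes 7 were called higher and 1 lower in D. melanogaster, near the 36.9% of all genes called in either direction, and 2 held. ush, for a cofactor of the GATA factor Pannier, held with 26.0 and 53.6 CPM in D. melanogaster and 3.39 and 10.3 in D. yakuba. kn, for a factor that patterns the middle of the wing, held with 15.2 and 19.8 in D. melanogaster and 1.06 and 5.16 in D. yakuba, and was not called without any 1 of the 4 libraries (1.77 to 3.95). ush was not called without the D. melanogaster wing (1.94) or the D. yakuba eye-antennal library (1.97). bi, nub and fng had log2 folds of 2.05, 2.72 and 5.99 in the gene mapping and -0.53, -0.18 and 0.47 in the genome mapping in that order. mirr, a selector gene of the Iroquois group, had 136 and 136 CPM in D. melanogaster and 111 and 124 in D. yakuba, and was not called.

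For signalling ligands and receptors the counts gave very different values. In the gene mapping 8 of 25 were called higher in D. melanogaster and 2 lower, near the 36.9% of all genes called in either direction, and 1 of each held. tkv, for a receptor of the Dpp signal, had 623 and 386 CPM in D. melanogaster and 17.2 and 17.8 in D. yakuba, a log2 fold of 4.83 in the gene mapping and 0.57 in the genome mapping. Its shared main site had 1865 tags in D. melanogaster and 1872 in D. yakuba. Dad, for an inhibitor of the same pathway, had 4.10 and 0.15 in these 2 counts. fng, for the glycosyltransferase that modifies Notch, is on both lists and was given above. The receptor genes fz and put, called higher in all tags (5.44 and 1.80), were called lower at shared sites (-3.13 and -5.51). ft, at 2L:4198404-4221796, for a giant cadherin that limits growth and orients cells, held. It had 166 and 186 CPM in D. melanogaster and 49.4 and 53.9 in D. yakuba, with log2 folds of 1.77, 5.26 and 5.43 in the 3 counts, and was not called without either D. yakuba library (1.73 and 1.79). Egfr, for the receptor of the Spitz signal, held lower, with 3.92 and 5.24 CPM in D. melanogaster and 242 and 238 in D. yakuba, and kept its call with each library left out (-5.97 to -5.50). The genome mapping placed its main D. yakuba position on twz, and with the 137 and 58 tags that it left on Egfr the log2 fold was -2.83.

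**Figure D4:**
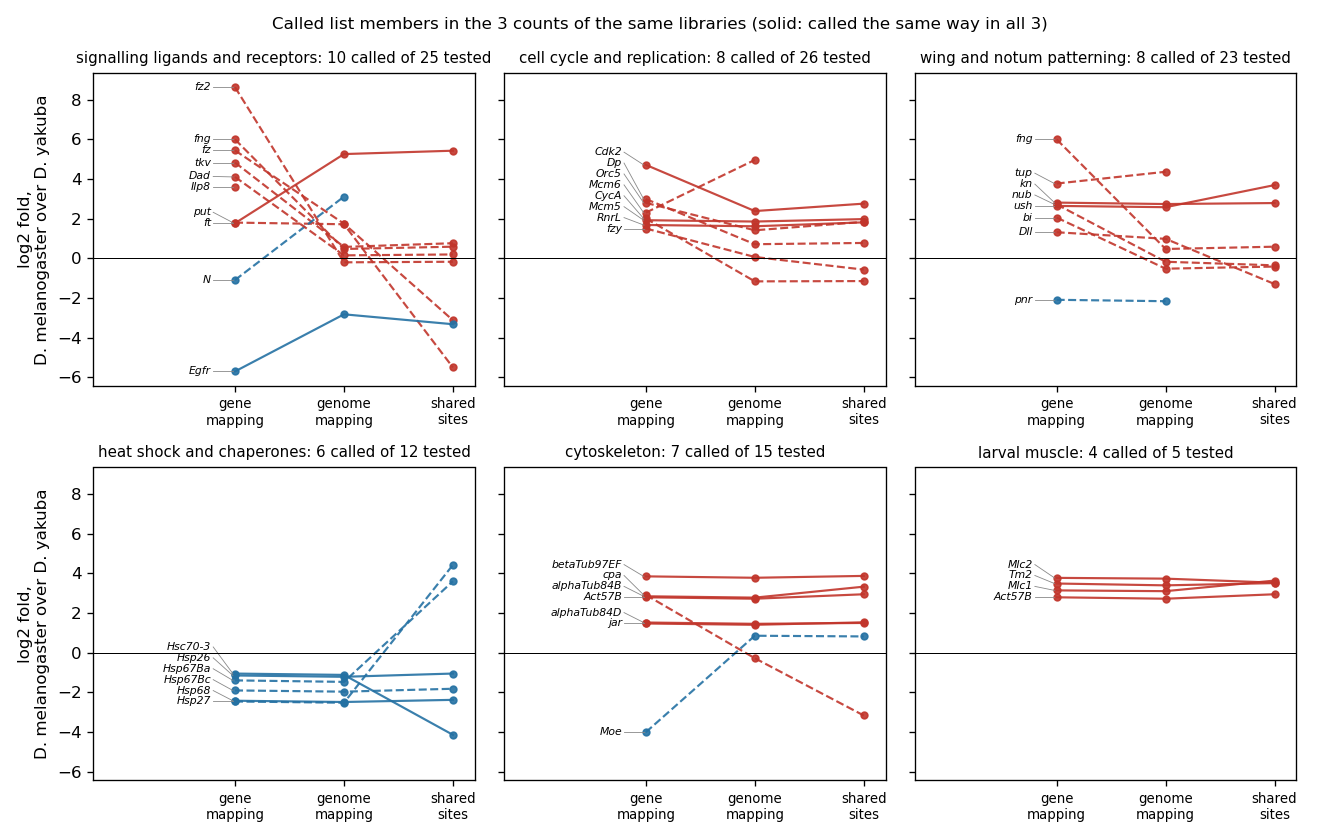
Log2 fold of D. melanogaster over D. yakuba (vertical axis) in the gene mapping, the genome mapping and at shared sites (horizontal axis) for every member called in the gene mapping, in 6 gene lists. Solid lines are genes called the same way in all 3 counts and dashed lines are not, red for genes called higher in D. melanogaster and blue for lower, and a line stops where a count gave no value. The muscle genes run level near 3, several signalling genes drop toward 0, and Hsp27 and Hsp67Ba turn to the other sign at shared sites.

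Cell cycle and replication genes were called higher in D. melanogaster in 8 of 26 cases, beside 18.8% of all genes, and never lower, and 3 held. Cdk2, for the kinase that drives entry into S phase, had 49.0 and 126 CPM in D. melanogaster and 1.48 and 5.73 in D. yakuba, a log2 fold of 4.71 ± 0.50 in the gene mapping, 2.38 in the genome mapping and 2.75 at shared sites. It was called with each library left out (3.87 to 5.82). Mcm5, of the replicative helicase, had 66.2 and 68.2 CPM in D. melanogaster and 17.2 and 18.3 in D. yakuba (1.92 ± 0.42). RnrL, for the large subunit of ribonucleotide reductase, had 40.7 and 108 in D. melanogaster and 13.6 and 31.5 in D. yakuba (1.68 ± 0.41). Mcm5 was not called without either D. yakuba library (1.89 and 1.92), nor RnrL without any 1 of the 4 libraries (0.83 to 2.42). CycA, for a mitotic cyclin, had 2.01 in the gene mapping and -1.17 in the genome mapping. The median of the list was 0.08 in the gene mapping, against -0.08 over all genes.

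Of 15 hormone response genes 3 were called higher and 2 lower, near the 36.9% of all genes called in either direction. usp, for the partner of the ecdysone receptor, held with 88.2 and 112 CPM in D. melanogaster and 26.7 and 24.7 in D. yakuba (1.95 ± 0.41). EcR, for the receptor itself, had 248 and 163 in D. melanogaster and 42.0 and 57.9 in D. yakuba, but -0.41 at shared sites. Hr3, an early-late nuclear receptor gene, held lower, with 25.0 and 10.5 in D. melanogaster and 81.0 and 59.1 in D. yakuba, as did ken, a zinc-finger repressor gene (-2.58). Without the D. yakuba eye-antennal library usp (2.05), Hr3 (-1.72) and ken (-2.37) were not called. sad, a ring gland gene for a step of ecdysone synthesis, had 74.5 and 3.50 CPM in D. melanogaster and 532 and 22.9 in D. yakuba. Its log2 fold of -2.79 held in the 3 counts, and was -2.83 within eye-antennal and -2.62 within wing discs. The 6 ring gland markers summed to 395 and 11.1 CPM in D. melanogaster and 1180 and 59.6 in D. yakuba by the gene mapping, where sad and Akh were called, both lower in D. melanogaster. By the genome mapping the D. yakuba sums were 654 and 22.4 CPM. There phtm (3.77) and spok (1.93), genes for other steps of ecdysone synthesis, were called higher in D. melanogaster, and Akh gave no test. The part of ring gland tissue in these values was not tested.

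Of 20 chromatin genes 7 were called higher and 2 lower, beside 18.8% higher and 18.1% lower over all genes. Sce, for the ubiquitin ligase of a Polycomb complex, held with 60.3 and 79.8 CPM in D. melanogaster and 5.51 and 9.75 in D. yakuba (3.24 ± 0.46), and BEAF-32, for an insulator protein, with 180 and 258 in D. melanogaster and 17.6 and 22.9 in D. yakuba (3.42 ± 0.40). Both were called with each library left out. Pcl, another Polycomb gene, held lower (-1.95) and was not called without either D. yakuba library (-2.09 and -1.83). D1, for a protein of AT-rich satellite DNA, had 3 and 4 tags in D. melanogaster and 8526 and 2750 in D. yakuba in the gene mapping and nearly the same in the genome mapping, but its D. yakuba tags lay at a site where D. melanogaster had none. Of 8 genes of dosage compensation and sex 1 was called higher and 2 lower, and none held. The share of called genes was between 33.9% and 38.9% on each of the arms 2L, 2R, 3L and 3R and on chromosomes X and 4.

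In cell adhesion and matrix 6 of 23 genes were called higher and 1 lower, beside 36.9% of all genes called in either direction, and none held. arm, for beta-catenin, had 880 and 636 CPM in D. melanogaster and 9.54 and 7.45 in D. yakuba, with log2 folds of 6.47 and 6.4 in the gene and genome mappings. Its main D. melanogaster site had 2757 tags and none in D. yakuba, and too few tags lay at shared sites for a value. alpha-Cat, for the partner that links cadherin to actin, had 452 and 377 CPM in D. melanogaster and 2.54 and 4.01 in D. yakuba, with 1511 tags at its main D. melanogaster site, and none there in D. yakuba. dlp, for a glypican, had 5.54 in the gene mapping and -0.91 in the genome mapping.

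Of 10 cell death genes 3 were called higher and 2 lower, beside 36.9% of all genes called in either direction. Diap2, for an inhibitor of apoptosis, held with 50.5 and 82.7 CPM in D. melanogaster and 5.93 and 6.88 in D. yakuba, a log2 fold of 3.31 ± 0.47 at a shared main site. grnd, for a receptor of the TNF signal Eiger, held lower, with 20.1 and 47.8 in D. melanogaster and 390 and 430 in D. yakuba (-3.71 ± 0.44). Both were called with each library left out. The caspase gene Drice had 1.78 in the gene mapping and 0.63 in the genome mapping, and Dronc, for the initiator caspase, -1.58 and 4.30.

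The remaining lists held few tested genes. Of 5 hemocyte markers He was called higher and NimC1 lower, of 5 brain markers nSyb was called lower, of 3 salivary gland markers none was called, and Jon65Aiii, the 1 midgut marker tested, was called lower. Of 4 gut serine protease genes 1 was called in each direction, and of 3 histone genes cid, for the centromeric histone, was called lower, and none of these held. Among all genes tested 18.8% were called higher and 18.1% lower in D. melanogaster. Over all lists, whose 697 symbols were not all tested, 56 genes held, 30 higher and 26 lower in D. melanogaster. Of all genes tested, 4.43% held higher and 4.52% lower. Of the 56 genes, 11 stayed called in each of the 4 fits that left out a library. These were alphaTub84B, betaTub97EF, Cdk2, Diap2, BEAF-32, Sce and ND-19, higher in D. melanogaster, and Eno, SdhB, Egfr and grnd, lower. Those fits were of the gene mapping, and do not show that the calls in the genome mapping and at shared sites were kept.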

How the data were processed

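Per the labels, tag profiling with NlaIII was done on 1 library per species and disc. The authors deposited raw tag counts by position, with a gene for each position (per the file headers). Per the submitters' processing notes Bowtie 0.12.1 was used. The sources used here do not state mismatches, tags with several matches, strand or the build of the D. melanogaster positions, so values of near-identical gene copies (tubulin, actin and storage protein genes, RpL34a) and of overlapping genes are uncertain. Gene coordinates are those of BDGP6.54 by gene identifier, and no coordinate was converted. Tags without a D. melanogaster gene, 2.04% and 0.886% in D. melanogaster and 5.54% and 5.62% in D. yakuba, were left out.

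Counts were summed per D. melanogaster gene. Of 8876 genes with tags in both species 8313 had a symbol. edgeR 4.0.16 (TMM factors, filterByExpr with a minimum count of 10, quasi-likelihood test, two-sided, disc as block, 1 residual degree of freedom and 8.92 prior degrees of freedom) was run for each count, with Benjamini-Hochberg adjustment over all genes of that fit. TMM factors were 1.10 and 1.07 in D. melanogaster and 0.946 and 0.899 in D. yakuba. CPM divide by the scaled total of tags in the fit, and folds of single discs add 0.5 tags. The shared-site count held 21878 positions in 7466 genes and 66.1% and 68.3% of D. melanogaster and 69.1% and 68.8% of D. yakuba tags. It leaves out tags at sites of one species, and it was added after the data were seen. The 2 mappings gave 72.1% of D. yakuba tags the same gene and 9.96% different genes. The gene mapping fit was also run on simulated counts with the same dispersion for every gene. That simulation had no differences in sites or gene models, so it says nothing of how the fits handle them.

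The 2 discs share a disc label by design and are not paired animals. Named genes were, in each direction, up to 12 with the same sign in both discs in both mappings, by the largest smaller fold of the 2 discs. Added in each direction were up to 6 whose fold the genome mapping reversed or left under 2-fold. Further named genes were up to 6 per species with most tags at 0 in the other, and the reference genes. In each of 32 lists the 4 most tagged and the 4 largest called folds at most were also named. Not every gene so named is described. Held list members and the 23 held genes at 1 site were added after their values were seen. Of the genes chosen by these rules 2 are not reported here. The members and lists were chosen with earlier results of these data known. Alternatives were other scalings, filters, tests (DESeq2 1.42.0, limma 3.58.1), 6 libraries, no block, single positions and each library left out.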

Additional observations from a re-analysis of the deposited data

Results flagged for a closer look

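For 2 genes of the gene lists the species difference had opposite signs in the eye-antennal and wing discs, and that difference between discs was not tested. These 2 are examples from the lists and not a count over the 6640 genes tested. No share of such genes over all genes is given. Obp56d, an odorant-binding protein gene, had 5.39 and 282 CPM in the D. melanogaster eye-antennal and wing discs and 81.6 and 20.1 in those of D. yakuba, so the log2 fold of D. melanogaster over D. yakuba was -3.86 for eye-antennal discs and 3.79 for wing discs. epsilonTry, a trypsin gene of the gut, had 0.981 and 23.9 CPM in D. melanogaster and 14.4 and 0.573 in D. yakuba, with log2 folds of -3.57 for eye-antennal discs and 4.81 for wing discs. Neither gene was called over both discs.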

How the results depend on the processing

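In the gene mapping 1248 genes were higher in D. melanogaster and 1203 higher in D. yakuba. Leaving out each library gave 484 to 1081 and 442 to 1210, with the low ends from the fits without a D. yakuba library, and the genes held in all 3 counts ranged from 28 to 257 and from 38 to 409, from 294 and 300. Genes with the same main tag site gave 450 and 349, from fewer genes tested. Without the replicate block the calls were 1025 and 906, of which 208 and 183 held, and 21 of 108 named genes lost their call. With no filter 461 held genes were higher in D. yakuba. Scaling by total tags moved the median log2 fold by 0.23, to 0.15, and gave 1453 and 1028 calls. DESeq2 gave 1069 and 990, limma 1386 and 1266, and the fit of 6 libraries 1217 and 1134. Genes at 0 in D. melanogaster with D. yakuba tags numbered 582 in the gene mapping and 251 in the genome mapping. Among the 108 named genes, directions reversed in the genome mapping for eEF1alpha2 (-1.50), fz2 (-0.21), CBP (-0.33), ctrip (-0.61), Cyp9b2 (0.22) and Tcs4 (0.99). At shared sites they reversed for eEF1alpha2 (-1.67), fz2 (-0.18), CBP (-0.22) and CDK2AP1 (-4.59). Over all called genes, 196 of those higher in D. melanogaster and 121 of those higher in D. yakuba had the opposite sign in the genome mapping. At shared sites 277 and 176 had it. Without the D. yakuba eye-antennal library ato had 0.15 and sad 0.76, and over the 4 libraries left out in turn these 2 ranged from -8.59 and -6.30. Those fits have no disc term and set eye-antennal against wing discs for these genes, whose folds within wing discs were -4.46 and -2.62. Other settings reversed none of the 108 named genes. Of these, 80 were held genes, which by definition cannot reverse in the genome mapping or at shared sites. List members that did not hold are left out of the 108 unless a ranking by fold named them, so the 108 do not stand for all called genes. The cause of the other changes was not tested. Depth limits genes with few tags, since 3 tags were 0.636 to 1.75 CPM.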

Other observations

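The D. virilis libraries, outside the comparison, gave tags for some of the 23 held genes. ND-19, higher in D. melanogaster than in D. yakuba, had 1506 and 2348 D. virilis tags in the eye-antennal and wing discs, and Trm1 had 814 and 1788. veli, higher in D. yakuba, had 186 and 282 D. virilis tags, and RpL29 had 1317 and 110. CG12310, CHKov1, Lsp1alpha, CG4594 and SPH93 had none, which with the greater distance of that species' sites and gene models says nothing of their transcripts.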
